A study of Arabidopsis thaliana with 18 samples.

Results

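Developing seeds of Arabidopsis thaliana that lack BADC1 and BADC3 were compared with wild-type seeds across all genes, in the libraries titled AtBD and AtWT without the letters tr. These are 6 of the 18 libraries of the series, 3 titled AtBD1 to AtBD3 and 3 titled AtWT1 to AtWT3. AtBD is the badc1/badc3 double knock out, obtained by crossing T-DNA insertion mutants, and AtWT is the wild type, Col-0. Both groups were developing seed collected at 9 to 10 days after flowering from plants in a growth chamber with a 16 h day, and polyA RNA was sequenced from both. The study also made plants in which a soybean glycinin promoter drives a FLAG-tagged ribosomal protein, HF-RPL18. The labels tie that transgene to ribosome-associated RNA and do not say whether any AtBD or AtWT plant carried it. They also do not say whether the 3 libraries of a group came from separate plants or pools, so the p-values measure the spread between these libraries, which may be technical. The comparison asks how seed metabolism responds to the higher oil content that comes with losing BADC1 and BADC3.

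BADC proteins belong to the plastid acetyl-CoA carboxylase, the enzyme that makes malonyl-CoA, the building block of fatty acid synthesis. They resemble its biotin carrier subunits BCCP1 and BCCP2 but carry no biotin, and they act as brakes on the enzyme. A seed at this stage is filling: sucrose delivered from the mother plant is turned into oil held in oil bodies and into storage proteins of the cruciferin and napin (SESA) families, while cell division in the embryo ends and the green embryo photosynthesises.

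Total counts ran from 17700289 (AtBD3) to 32547007 (AtWT1) per library. AtBD3 and AtWT2 stood apart from the rest. AtBD3 correlated with the others at 0.902 to 0.930 and AtWT2 at 0.902 to 0.945 (log2 CPM across genes), where the other 4 libraries correlated at 0.956 to 0.975 among themselves. The first principal component, with 41.2% of the variance, set AtBD3 apart and the second, with 25.7%, AtWT2. The 20 most abundant genes of a library took 36.7% to 40.1% of its counts in AtBD and 28.4% to 32.2% in AtWT, so libraries were scaled with TMM. Values are CPM, the counts scaled to the TMM-adjusted library total of 1e6. They are not divided by gene length, so levels are compared between libraries and not between genes. The tissue label was checked against markers. Storage protein transcripts, which mark the filling embryo, summed to 373035, 329435 and 304225 CPM in AtBD, against 208615, 254451 and 180310.0 CPM in AtWT. Markers of the silique wall, the fruit tissue around the seeds, summed to 264, 268 and 298 CPM in AtBD, against 277, 255 and 306 CPM in AtWT. Of 13 endosperm markers 5 were abundant enough to be tested, among them EPR1 at 4750.5, 5351 and 3521 CPM in AtBD, against 4359.5, 3121 and 3827 CPM in AtWT.

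The knocked-out genes were nearly silent in every AtBD library. BADC3 (AT3G15690, TAIR10 chromosome 3, 5316916 to 5320121, plus strand) had 4, 2 and 16 reads in AtBD, against 3954, 2172 and 2220 in AtWT. That is 0.205, 0.105 and 0.948 CPM in AtBD, against 109, 91.98 and 90.4 CPM in AtWT (log2 fold change -7.90, SE 0.42, adjusted p = 7.22e-06). BADC1 (AT3G56130, chromosome 3, 20826576 to 20829270, plus strand) had 43, 66 and 37 reads in AtBD, against 3853, 2113 and 2171 in AtWT, or 2.20, 3.45 and 2.19 CPM in AtBD, against 106, 89.5 and 88.4 CPM in AtWT (log2 fold change -5.17, SE 0.22, adjusted p = 1.42e-06). The groups do not come near each other for either gene, as the labels of a double knock out say. The labels give no insertion site, so the residual reads, 0.108% to 0.975% of the AtWT mean for BADC3 and 2.31% to 3.64% for BADC1, were not placed relative to it. BADC2 (AT1G52670), the family member that was not knocked out, had 223, 226 and 222 CPM in AtBD, against 215, 180.1 and 157 CPM in AtWT (log2 fold change 0.28, SE 0.15, adjusted p = 0.501). Its 3 AtBD libraries were all above its 3 AtWT libraries, but the difference did not pass the test.

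Of 19127 genes tested, 287 passed an adjusted p of 0.05 in edgeR's quasi-likelihood test, which is 1.50% of those tested. The 76 that rose in AtBD are 0.397% and the 211 that fell are 1.10%. The median log2 fold change was 0.94 among the risers and -1.27 among the fallers, against -0.004 over all genes tested. Of the risers 32 changed at least 2-fold, and of the fallers 162. All 287 had 3 AtBD libraries on one side of the 3 AtWT libraries, as did 20.0% of all genes tested (8.70% higher and 11.3% lower). Called genes were spread over the chromosomes, with 1.27% to 1.60% of the tested genes of each chromosome. Within 100 kb of BADC3, 1 of 40 tested genes was called, and within 100 kb of BADC1, 1 of 47.

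The count of called genes depends on single libraries. It was 99 without AtBD1, 60 without AtBD2, 210 without AtBD3, 151 without AtWT1, 414 without AtWT2 and 85 without AtWT3. Without both AtBD3 and AtWT2, a setting added once the values were known, 1451 genes passed (696 higher and 755 lower), 286 of the 287 among them. Every called gene kept its direction in each of these fits. Of the 287, 50 passed whichever library was left out, 7 of them higher and 43 lower. The spans of 62 called genes overlap another annotated gene. Since the strand columns split evenly, strand does not tell such a gene from its overlapping or antisense partner. Reads marked ambiguous were kept apart from the counts, 1.20% to 1.50% in these libraries. Among the called genes given here with a log2 value, such overlap touches CA1, BCA3, AT5G51950, AT5G66230, LHCB2.3, LHCB4.2, CDKB2;1, CDKB2;2, KN, TSO2, BCAT4, PHS1, AT1G28710, AT1G56300, IAA32 and FKF1.

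**Figure D1:**
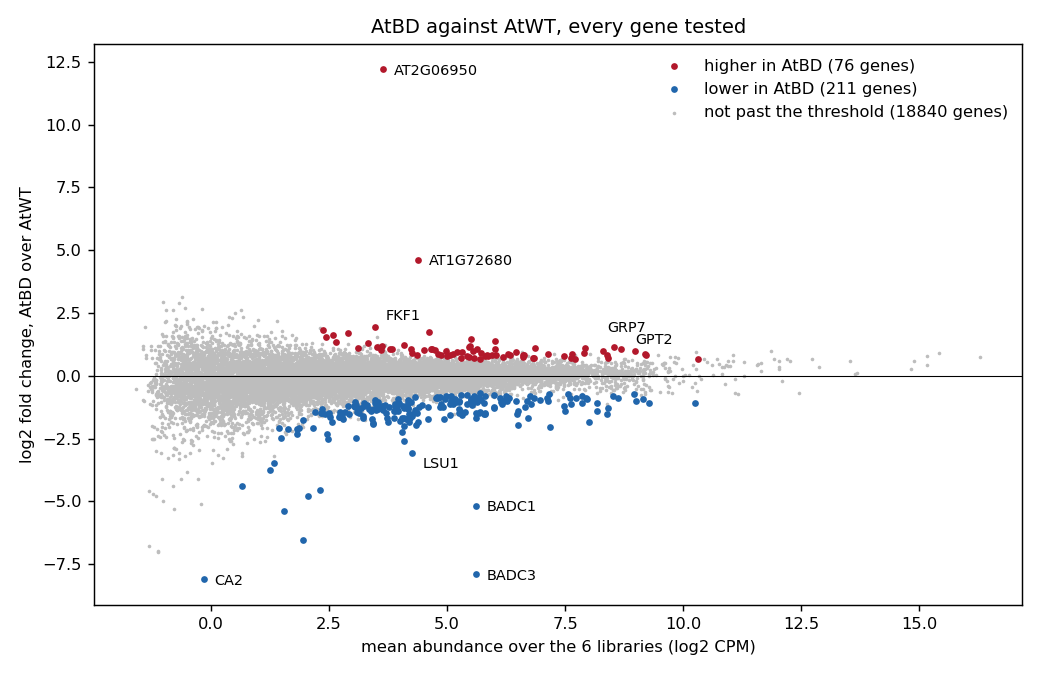
Log2 fold change of AtBD over AtWT (vertical axis) against mean abundance over the 6 libraries (log2 CPM, horizontal axis) for all 19127 genes tested. Red points are the 76 genes higher in AtBD, blue points the 211 lower in AtBD, and grey points did not pass the threshold. BADC3 and BADC1 lie at -7.90 and -5.17, and AT2G06950 and AT1G72680 stand above the other risers.

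None of the other subunits of the carboxylase passed the test. The biotin carrier BCCP1 had 121, 118 and 105 CPM in AtBD, against 128, 124 and 104 CPM in AtWT (log2 fold change -0.05, SE 0.15, adjusted p = 0.935). BCCP2, the other carrier, had 447, 422 and 417 CPM in AtBD, against 405, 437 and 345 CPM in AtWT (log2 fold change 0.12, SE 0.14, adjusted p = 0.836). Both carriers overlapped between the groups. The biotin carboxylase CAC2 was at 0.11 (adjusted p = 0.844) and the carboxyltransferase subunit CAC3 at 0.09 (adjusted p = 0.880) on the log2 scale. The plastid-encoded subunit accD had 2.66, 5.13 and 3.73 CPM in AtBD, against 0.773, 11.2 and 4.56 CPM in AtWT, with most of the spread inside AtWT, and its difference of -0.51 did not pass (adjusted p = 0.849). Its sign turned without AtWT2 (0.55). The 2 further regulators of the enzyme on the list, CTI1 and the PII protein GLB1, were at -0.02 and 0.18 (adjusted p = 0.981 and 0.815). Of the 10 carboxylase and BADC genes, the 2 that passed were the targets themselves.

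Genes of plastid fatty acid synthesis and export showed 0 calls among 37 tested, with a median log2 fold change of 0.10 (0.05 without AtWT3). A positive log2 fold change was found for 29. The groups did not overlap on the high side for 11 and on the low side for 2, against 8.70% and 11.3% of all genes. The list summed to 9505, 9227 and 9491 CPM in AtBD, against 8819, 8723 and 7692 CPM in AtWT, with no overlap. WRI1, the transcription factor that switches on glycolysis and fatty acid synthesis in seeds, had 205, 205 and 229 CPM in AtBD, against 189, 194 and 174 CPM in AtWT (log2 fold change 0.20, SE 0.14, adjusted p = 0.637). Its AtBD libraries lay just above its AtWT libraries, but the difference did not pass the test. The stearoyl-ACP desaturase FAB2 had the smallest p of the list, with 689, 659.9 and 758 CPM in AtBD, against 473, 531 and 442 CPM in AtWT. All 3 AtBD libraries of FAB2 exceeded all 3 of AtWT (log2 fold change 0.54, SE 0.14, adjusted p = 0.0895). AAD1, another stearoyl-ACP desaturase, was at 0.39 (adjusted p = 0.260). Of 19 genes of triacylglycerol assembly and fatty acid modification, 1 rose: FAD3, the desaturase that makes linolenic acid in the endoplasmic reticulum. FAD3 had 1595, 1583 and 1555 CPM in AtBD, against 1045, 989 and 917 CPM in AtWT (log2 fold change 0.68, SE 0.13, adjusted p = 0.0311), and its groups did not overlap. Its neighbours in the pathway, which did not pass, were FAD2 at 0.38 (adjusted p = 0.411), the phosphatidylcholine exchange enzyme ROD1 at 0.58 (adjusted p = 0.0720), the elongase FAE1 at 0.53 (adjusted p = 0.192) and the acyltransferase DGAT1 (TAG1) at 0.32 (adjusted p = 0.358). FAD3 passed without AtWT2 and missed the threshold without any other single library. Of the 19 genes 14 were positive, and 7 did not overlap on the high side and 0 on the low side. They summed to 6954, 6660 and 5532 CPM in AtBD, against 5293, 4636 and 4442 CPM in AtWT, with no overlap.

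Oil body and storage protein transcripts had higher sums in every AtBD library than in any AtWT library, while 0 of their 26 genes passed the test. Oil body transcripts summed to 40887, 39117 and 43799 CPM in AtBD, against 25003, 31718 and 24269 CPM in AtWT. The oleosin OLEO1, which coats oil bodies, had 13772, 13657 and 15301 CPM in AtBD, against 9355, 10079.6 and 8647 CPM in AtWT (log2 fold change 0.61, SE 0.14, adjusted p = 0.0646), and the caleosin CLO1 had 2048, 1985 and 2208 CPM in AtBD, against 1114, 1606 and 1190.3 CPM in AtWT (log2 fold change 0.67, SE 0.17, adjusted p = 0.0743). A positive log2 fold change was found for 12 of the 13 oil body genes (median 0.48). The storage protein sums, given above, did not overlap either, and each of the 13 genes had a positive log2 fold change (median 0.58). SESA4, a napin, had 58143, 50976 and 61511 CPM in AtBD, against 26709.6, 41234 and 22825 CPM in AtWT (log2 fold change 0.91, SE 0.21, adjusted p = 0.0636), and SESA5 had 4981, 4409.6 and 5546 CPM in AtBD, against 1747, 3594 and 2157 CPM in AtWT (log2 fold change 0.99, SE 0.24, adjusted p = 0.0707). For both, AtWT2 was the AtWT library nearest to AtBD. Without AtWT2, 7 oil body and 6 storage protein genes passed, and without both AtBD3 and AtWT2, 9 and 12 did. DESeq2 called 6 and 7. Those fits also called more genes in all: 414 without AtWT2, 1451 without both and 840 by DESeq2, against 287. Napin genes are near-identical copies. Reads mapping to several places are kept apart from the counts, so reads that the copies share may be missing, unevenly among them. The share of counts in the 20 most abundant genes, given above, moves with this group, and its part in the result was not tested.

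**Figure D2:**
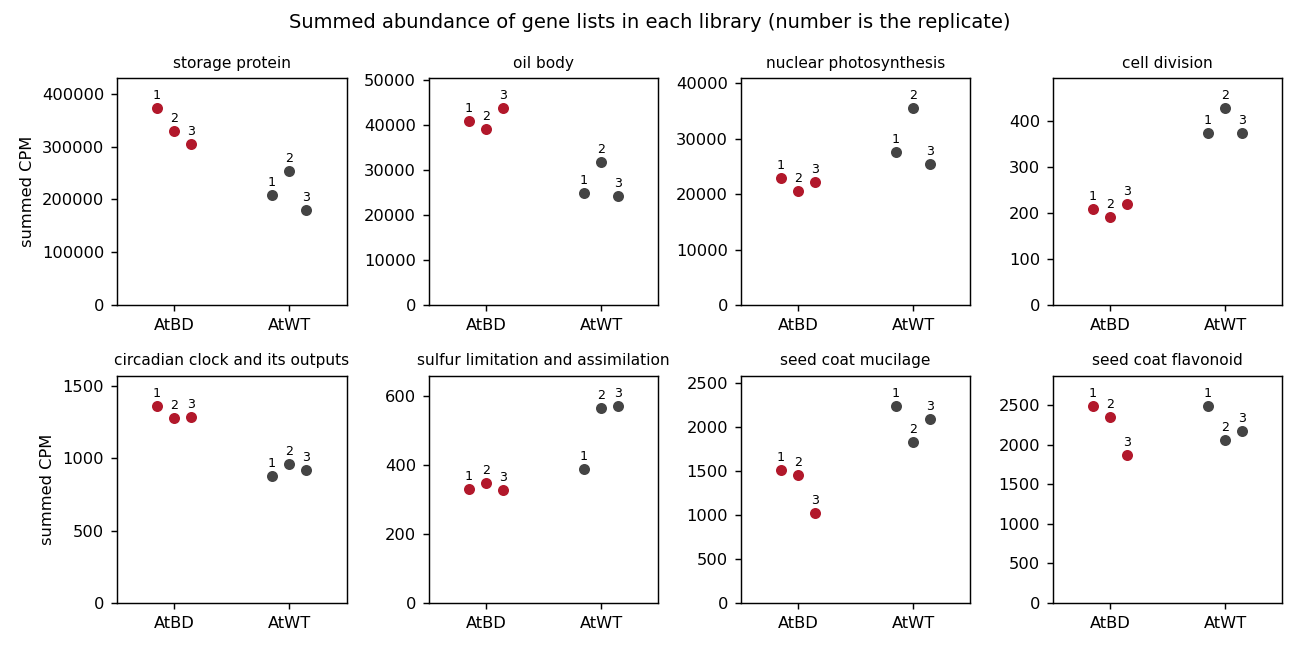
Summed abundance (CPM, vertical axes starting at 0) of 8 gene lists in each library, AtBD left and AtWT right, with the replicate number above each point. Storage protein, oil body and circadian sums are higher in every AtBD library, photosynthesis, cell division, sulfur and mucilage sums are lower in every AtBD library, and the flavonoid sums overlap.

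Among 17 regulators of seed maturation tested, 1 rose and 1 fell. DOG1, the delay-of-germination gene that sets dormancy, had 122, 116 and 142 CPM in AtBD, against 68.3, 70.3 and 75.2 CPM in AtWT (log2 fold change 0.83, SE 0.14, adjusted p = 0.0180). LEC1, a transcription factor subunit of early embryo and maturation programmes, had 11.8, 14.02 and 8.76 CPM in AtBD, against 25.3, 24.2 and 23.8 CPM in AtWT (log2 fold change -1.08, SE 0.20, adjusted p = 0.0247). In neither gene did the groups overlap, with AtBD on the high side for DOG1 and on the low side for LEC1. The regulators ABI3, FUS3 and the LEC1 relative L1L were at 0.34, 0.03 and -0.09 (adjusted p = 0.535, 0.964 and 0.902). Late maturation and desiccation genes had 0 calls of 22 tested and a median of 0.18, which was 0.029 without AtBD3, 0.0315 without AtWT1, 0.27 without AtBD1 and 0.40 without AtWT2. Without AtWT2, 4 of them passed, in a fit that called 414 genes in all. PER1, a peroxiredoxin of the maturing seed, had 1571, 1490.4 and 2129 CPM in AtBD, against 980.0, 1500.5 and 1048 CPM in AtWT, where AtWT2 lay inside the AtBD range (log2 fold change 0.56, SE 0.20, adjusted p = 0.242). AT4G21020, a late embryogenesis abundant gene, was at 0.56 (adjusted p = 0.198). Genes of abscisic acid synthesis, breakdown and its phosphatases had 0 calls of 19. Of the synthesis enzymes, NCED6 had 22.5, 18.4 and 12.6 CPM in AtBD, against 35.95, 34.9 and 28.6 CPM in AtWT (log2 fold change -0.89, SE 0.22, adjusted p = 0.0728), and the scarcely expressed NCED3 was at 2.49 (adjusted p = 0.150). DOG1 and LEC1 each passed without AtBD3 and without AtWT2, and missed the threshold without any other single library.

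Of the sugar genes, 1 importer of the plastid rose and 1 sucrose transporter fell. GPT2 brings glucose 6-phosphate into plastids, where it can feed starch or fatty acid synthesis. It had 586, 558 and 531 CPM in AtBD, against 287, 256 and 256 CPM in AtWT (log2 fold change 1.07, SE 0.14, adjusted p = 0.00339). The lowest AtBD library was far above the highest AtWT library, and GPT2 passed whichever library was left out. SUC5, a sucrose carrier known from the endosperm, had 10.4, 12.2 and 5.63 CPM in AtBD, against 26.5, 34.2 and 24.9 CPM in AtWT (log2 fold change -1.59, SE 0.27, adjusted p = 0.0153), with AtBD3 the lowest library. Of 21 genes for sucrose breakdown, sugar transport and plastid import, these were the only calls, and the relative GPT1 was at 0.12 (adjusted p = 0.861). SUC5 missed the threshold without AtBD1 and without AtWT3.

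Of 29 starch genes 1 passed, 22 had a positive log2 fold change, and the median was 0.26. PHS1 (AT3G29320), the plastid glucan phosphorylase, had 183, 213 and 149.8 CPM in AtBD, against 119, 91.6 and 92.8 CPM in AtWT (log2 fold change 0.85, SE 0.17, adjusted p = 0.0381), higher in every AtBD library. The debranching enzyme ISA3 and the beta-amylase BAM3 were at 0.64 (adjusted p = 0.0741) and 0.73 (adjusted p = 0.0734), and the granule-bound starch synthase GBSS1 at 0.11 (adjusted p = 0.834). Among 6 genes of galactinol and raffinose, STS, the stachyose synthase, rose with 48.3, 50.6 and 47.1 CPM in AtBD, against 31.4, 25.9 and 31.2 CPM in AtWT (log2 fold change 0.72, SE 0.15, adjusted p = 0.0421). Its groups were narrow and apart, but it passed in none of the 6 fits with a library left out. PHS1 passed without AtBD3 and without AtWT1 only. Without both AtBD3 and AtWT2, 8 starch genes were higher, in a fit where 696 of all genes were.

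The glyoxylate cycle enzyme ICL (isocitrate lyase), which turns the carbon of broken-down fatty acids towards sugar, was the 1 call among 19 genes of lipid breakdown. It had 260.4, 258 and 249 CPM in AtBD, against 149, 169.5 and 159 CPM in AtWT (log2 fold change 0.68, SE 0.13, adjusted p = 0.0307). The partner enzyme MLS (malate synthase) had 22.4, 21.9 and 22.98 CPM in AtBD, against 17.3, 31.4 and 24.9 CPM in AtWT (log2 fold change -0.13, SE 0.21, adjusted p = 0.884), and its groups overlapped. The triacylglycerol lipase SDP1 was at 0.11 (adjusted p = 0.920). Of 16 genes linked to low sugar and darkness, DIN2, a beta-glucosidase, rose with 10.4, 9.31 and 7.34 CPM in AtBD, against 2.15, 3.60 and 3.06 CPM in AtWT (log2 fold change 1.63, SE 0.29, adjusted p = 0.0210), and the marker DRM1 was at 1.25 (adjusted p = 0.0848). ICL and DIN2 each passed without AtBD3 and without AtWT2, and missed the threshold without any other single library.

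Of 41 genes of the circadian clock and its outputs tested, 7 rose and 0 fell, against 0.397% and 1.10% of all genes. The lists were chosen with earlier results of these data known. Such a contrast with all genes, here and for the other lists, is therefore descriptive and not independent support. Plants keep time with a loop of transcription factors: the morning factors CCA1 and LHY repress evening genes, the day factors of the PRR family repress CCA1 and LHY, and the evening complex of ELF3, ELF4 and LUX closes the loop. FKF1, a blue-light receptor that releases flowering genes from repression, had 18.9, 17.4 and 16.3 CPM in AtBD, against 4.91, 3.05 and 5.87 CPM in AtWT (log2 fold change 1.93, SE 0.26, adjusted p = 0.00450). PRR5, an afternoon repressor of the morning factors, had 15.4, 13.02 and 14.1 CPM in AtBD, against 6.15, 4.74 and 6.11 CPM in AtWT (log2 fold change 1.32, SE 0.22, adjusted p = 0.0139). Neither gene overlapped between the groups, and the lowest AtBD library was more than 2 times the highest AtWT library in both. ELF4 of the evening complex had 8.14, 12.6 and 13.3 CPM in AtBD, against 2.51, 4.23 and 3.67 CPM in AtWT (log2 fold change 1.71, SE 0.29, adjusted p = 0.0173). GRP7, a glycine-rich RNA-binding protein with an evening rhythm, had 568, 501 and 469.7 CPM in AtBD, against 215, 251 and 222 CPM in AtWT (log2 fold change 1.16, SE 0.14, adjusted p = 0.00287). JMJD5, a histone demethylase of the clock, was at 1.35 (adjusted p = 0.0420) and COR28, a night-time repressor induced by cold and light, at 1.81 (adjusted p = 0.0236). Its sister COR27, named after its values were seen, had 19.9, 17.9 and 18.3 CPM in AtBD, against 9.44, 10.1 and 7.17 CPM in AtWT (log2 fold change 1.07, SE 0.20, adjusted p = 0.0254). All 7 risers were higher in every AtBD library than in any AtWT library.

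The morning factors did not pass. CCA1 had 17.4, 18.5 and 19.6 CPM in AtBD, against 23.6, 18.7 and 26.6 CPM in AtWT (log2 fold change -0.31, SE 0.18, adjusted p = 0.555), and LHY was at -0.58 (adjusted p = 0.244). The evening genes TOC1 and GI were at 0.12 (adjusted p = 0.902) and 0.37 (adjusted p = 0.489), and the day factor PRR3 at 1.12 (adjusted p = 0.0514). Of the 41 clock genes 23 were positive and 18 negative, with a median of 0.12. The groups did not overlap on the high side for 10 and on the low side for 5. The summed clock list had 1364, 1281 and 1288 CPM in AtBD, against 879.6, 963 and 918 CPM in AtWT, with no overlap. Much of that difference comes from GRP7, with a mean of 513 CPM in AtBD, against 229 CPM in AtWT. The labels give no hour of collection for either group. The number of clock genes higher was 4 without AtBD1, 2 without AtBD2, 5 without AtBD3, 3 without AtWT1, 6 without AtWT2 and 2 without AtWT3. FKF1 and GRP7 passed in all 6 of these fits. JMJD5 passed in none of them.

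The evening element, AAAATATCT on either strand, is a sequence of evening-phased clock promoters. It was searched for in the 250 bases before each annotated start in TAIR10.1. Of 13135 tested genes with a complete window 2.67% hold it. Of 36 clock genes 9 hold it, of the 7 clock genes that rose 4, of all risers 13.2% (9 of 68) and of all fallers 2.27% (4 of 176). The windows of 3 clock genes that rose and hold the element are printed with it in capitals, 5′ to 3′ on the strand of the gene, as they show how the element recurs: FKF1 (chr1:25508389-25508638, plus strand), PRR5 (chr5:8358547-8358796, minus strand) and GRP7 (chr2:9266558-9266807, minus strand). The first 2 hold it once and GRP7 has 3 copies. These are matches of letters, not shown sites of binding.
FKF1: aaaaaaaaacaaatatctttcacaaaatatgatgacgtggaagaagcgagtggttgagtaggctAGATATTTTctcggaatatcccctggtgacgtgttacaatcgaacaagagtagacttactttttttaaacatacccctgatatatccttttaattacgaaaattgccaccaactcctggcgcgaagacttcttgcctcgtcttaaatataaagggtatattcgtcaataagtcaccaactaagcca
PRR5: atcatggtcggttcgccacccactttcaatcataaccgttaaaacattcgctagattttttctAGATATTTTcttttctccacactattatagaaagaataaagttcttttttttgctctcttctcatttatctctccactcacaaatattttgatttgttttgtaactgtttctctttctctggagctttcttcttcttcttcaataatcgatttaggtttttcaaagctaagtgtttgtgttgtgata
GRP7: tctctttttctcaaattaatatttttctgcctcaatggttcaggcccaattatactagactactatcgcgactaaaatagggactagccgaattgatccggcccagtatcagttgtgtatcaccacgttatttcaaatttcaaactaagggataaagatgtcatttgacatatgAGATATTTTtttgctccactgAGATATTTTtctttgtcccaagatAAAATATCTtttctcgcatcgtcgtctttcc

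Of 18 genes of sulfur limitation and assimilation tested, 4 fell and 1 rose, against 1.10% and 0.397% of all genes, 17 were negative, and the median log2 fold change was -0.70. Plants switch on most of these genes when sulfur is short. LSU1, a small protein of the low-sulfur response, had 3.43, 5.39 and 3.08 CPM in AtBD, against 13.6, 55.3 and 32.3 CPM in AtWT (log2 fold change -3.08, SE 0.44, adjusted p = 0.00704). GGCT2;1, which breaks down glutathione and so recovers cysteine, had 5.38, 5.13 and 3.61 CPM in AtBD, against 17.6, 37.8 and 31.04 CPM in AtWT (log2 fold change -2.61, SE 0.29, adjusted p = 0.00162). Both genes varied widely among the AtWT libraries, with AtWT1 the lowest and AtWT2 the highest, and were uniformly low in AtBD. SULTR1;2, a sulfate uptake transporter, had 4.51, 3.92 and 4.56 CPM in AtBD, against 14.5, 11.8 and 15.5 CPM in AtWT (log2 fold change -1.69, SE 0.23, adjusted p = 0.00450). SDI1, a sulfur-deficiency protein known to repress glucosinolate synthesis, had 8.70, 9.52 and 11.3 CPM in AtBD, against 21.5, 26.9 and 35.4 CPM in AtWT (log2 fold change -1.51, SE 0.22, adjusted p = 0.00728). Neither of these overlapped between the groups, and their AtWT libraries lay closer together. The relatives LSU3 and SDI2 were at -1.77 (adjusted p = 0.0707) and -1.42 (adjusted p = 0.0707), and the sulfate-reducing enzymes APR1, APR2 and APR3 at -0.14, -0.73 and -0.62 (adjusted p = 0.833, 0.0668 and 0.185). The riser was SERAT1;1, named after its values were seen, a cytosolic serine acetyltransferase that makes the carbon skeleton of cysteine, with 58.4, 58.6 and 58.8 CPM in AtBD, against 35.2, 40.3 and 32.6 CPM in AtWT (log2 fold change 0.70, SE 0.15, adjusted p = 0.0428). The list summed to 331, 347 and 327 CPM in AtBD, against 388, 563 and 571 CPM in AtWT, and AtWT1 was the AtWT library nearest to AtBD. The number of sulfur genes lower was 2 without AtBD1, 3 without AtBD2, 6 without AtWT1 and 4 without each of the others. SERAT1;1 passed without AtWT2 only.

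Aliphatic glucosinolates are sulfur-containing defence compounds made from methionine and stored in seeds. Of 18 genes of their synthesis tested, 3 rose and 0 fell, against 0.397% and 1.10% of all genes, 17 were positive, and the median was 0.53. BCAT4, the aminotransferase that starts methionine chain elongation, had 111, 111 and 87.7 CPM in AtBD, against 57.8, 54.6 and 60.3 CPM in AtWT (log2 fold change 0.84, SE 0.15, adjusted p = 0.0208). MAM1, the synthase of the elongation cycle, had 116, 127 and 123 CPM in AtBD, against 70.3, 74.3 and 76.1 CPM in AtWT (log2 fold change 0.73, SE 0.14, adjusted p = 0.0247). SOT17, the sulfotransferase of the last core step, had 36.6, 40.6 and 29.8 CPM in AtBD, against 18.3, 18.04 and 16.9 CPM in AtWT (log2 fold change 1.01, SE 0.17, adjusted p = 0.0156). In all 3 genes every AtBD library was above every AtWT library. The cytochromes CYP79F1 and CYP83A1 of the core pathway were at 0.69 (adjusted p = 0.0582) and 0.57 (adjusted p = 0.160), and the regulator MYB28 at 0.25 (adjusted p = 0.847). BZO1, an enzyme of benzoyloxyglucosinolates in seeds that is not on the list and was named after its values were seen, had 253, 235 and 243 CPM in AtBD, against 154, 162 and 138 CPM in AtWT (log2 fold change 0.69, SE 0.14, adjusted p = 0.0321), and passed in 1 of the 6 fits with a library left out. The list summed to 1876, 1928 and 1906 CPM in AtBD, against 1310.3, 1437 and 1307 CPM in AtWT, with no overlap. The number higher was 0 without AtBD1, 0 without AtBD2, 0 without AtWT3, 1 without AtWT1, 3 without AtBD3 and 4 without AtWT2.

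Of 23 jasmonate genes tested, 4 fell and 0 rose, against 1.10% and 0.397% of all genes. The list's median was 0.04, and it lay at or below 0.000485 with any one library left out, down to -0.10 without AtBD2. VSP1 and VSP2, vegetative storage proteins whose transcripts follow jasmonate, are close copies. VSP1 had 29.9, 24.1 and 23.3 CPM in AtBD, against 67.8, 79.1 and 66.1 CPM in AtWT (log2 fold change -1.46, SE 0.16, adjusted p = 0.00162), and VSP2 had 193, 167 and 155 CPM in AtBD, against 307, 340.1 and 333 CPM in AtWT (log2 fold change -0.93, SE 0.14, adjusted p = 0.0106). AOC3, an allene oxide cyclase of jasmonate synthesis, had 16.9, 13.2 and 10.7 CPM in AtBD, against 29.2, 31.7 and 30.9 CPM in AtWT (log2 fold change -1.17, SE 0.19, adjusted p = 0.0147). JMT, which methylates jasmonate, had 48.1, 36.04 and 25.9 CPM in AtBD, against 86.6, 93.8 and 87.7 CPM in AtWT (log2 fold change -1.28, SE 0.21, adjusted p = 0.0125). In all 4 the AtBD libraries were below the AtWT libraries, with AtBD3 the lowest. The synthesis enzymes AOS and LOX2 and the repressor JAZ1 were at 0.04, 0.04 and 0.22 (adjusted p = 0.965, 0.958 and 0.702). The number of jasmonate genes lower was 1 without AtBD2, 1 without AtWT3 and 4 without each of the others.

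Of 55 nuclear photosynthesis genes tested, 9 fell and 0 rose, against 1.10% and 0.397% of all genes. A negative log2 fold change was found for 54, and the median was -0.47. The groups did not overlap on the low side for 31 of the 55, against 11.3% of all genes. LHCB2.3, a chlorophyll-binding antenna protein of photosystem II, had 14.9, 15.3 and 11.6 CPM in AtBD, against 38.8, 62.97 and 37.97 CPM in AtWT (log2 fold change -1.74, SE 0.23, adjusted p = 0.00360). Its close copy LHCB2.2 had 113, 94.99 and 87.5 CPM in AtBD, against 231, 337 and 216 CPM in AtWT (log2 fold change -1.41, SE 0.19, adjusted p = 0.00499). RBCS2B, a small subunit of Rubisco, the enzyme that fixes carbon dioxide, had 20.9, 21.7 and 23.9 CPM in AtBD, against 53.5, 73.05 and 54.1 CPM in AtWT (log2 fold change -1.44, SE 0.17, adjusted p = 0.00260), and RBCS3B had 173, 168 and 165 CPM in AtBD, against 266, 323 and 294 CPM in AtWT (log2 fold change -0.80, SE 0.14, adjusted p = 0.0175). In all 4 genes the AtBD libraries lay close together and below every AtWT library, and AtWT2 was the highest. The 5 other fallers, named after their values were seen, were LHCB1.1 at -0.93, LHCB4.2 at -0.73, the oxygen-evolving proteins PSBO2 at -0.90 and PSBQ1 at -0.81, and plastocyanin PETE1 at -0.90 (adjusted p = 0.0381, 0.0486, 0.0202, 0.0221 and 0.0202). Another small subunit gene, RBCS1A, had 2337, 2154 and 1783 CPM in AtBD, against 2618, 2338 and 1997 CPM in AtWT (log2 fold change -0.15, SE 0.16, adjusted p = 0.807), and its groups overlapped. Near-identical copies of RBCS, LHCB1 and LHCB2 share reads. Reads mapping to several places are kept apart from the counts, so the values of single copies are uncertain.

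Summed, the photosynthesis list had 22851, 20616 and 22177 CPM in AtBD, against 27593, 35502 and 25352 CPM in AtWT. The number of its genes lower was 3 without AtBD1, 2 without AtBD2, 6 without AtBD3, 6 without AtWT1, 8 without AtWT2 and 4 without AtWT3. Without both AtBD3 and AtWT2 it was 22, in a fit where 755 of all genes were lower. Carbonic anhydrases interconvert carbon dioxide and bicarbonate. Of the 3 named here, BCA3 and CA2 were picked after their values were seen. CA1 had 2.36, 3.09 and 2.01 CPM in AtBD, against 14.3, 14.7 and 12.9 CPM in AtWT (log2 fold change -2.49, SE 0.25, adjusted p = 9.95e-04), and BCA3 had 2.87, 4.08 and 2.49 CPM in AtBD, against 6.32, 14.9 and 10.2 CPM in AtWT (log2 fold change -1.73, SE 0.35, adjusted p = 0.0338). Both fell, with no overlap between the groups. CA2 had no read in any AtBD library and 77, 14 and 41 reads in AtWT, at least 27.1-fold lower against a floor of 3 counts over the group. CA1 passed in all 6 fits with a library left out, BCA3 and CA2 in 1 each. Plastid-encoded genes had 0 calls of 74 tested. Their polyA counts summed to 606, 599 and 1490.0 CPM in AtBD, against 109, 1110.2 and 1075 CPM in AtWT, where AtWT1 stood far below the other libraries and the groups overlapped. In whole seeds, fewer green cells and less RNA per cell cannot be told apart, which holds for every group described here.

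**Figure D3:**
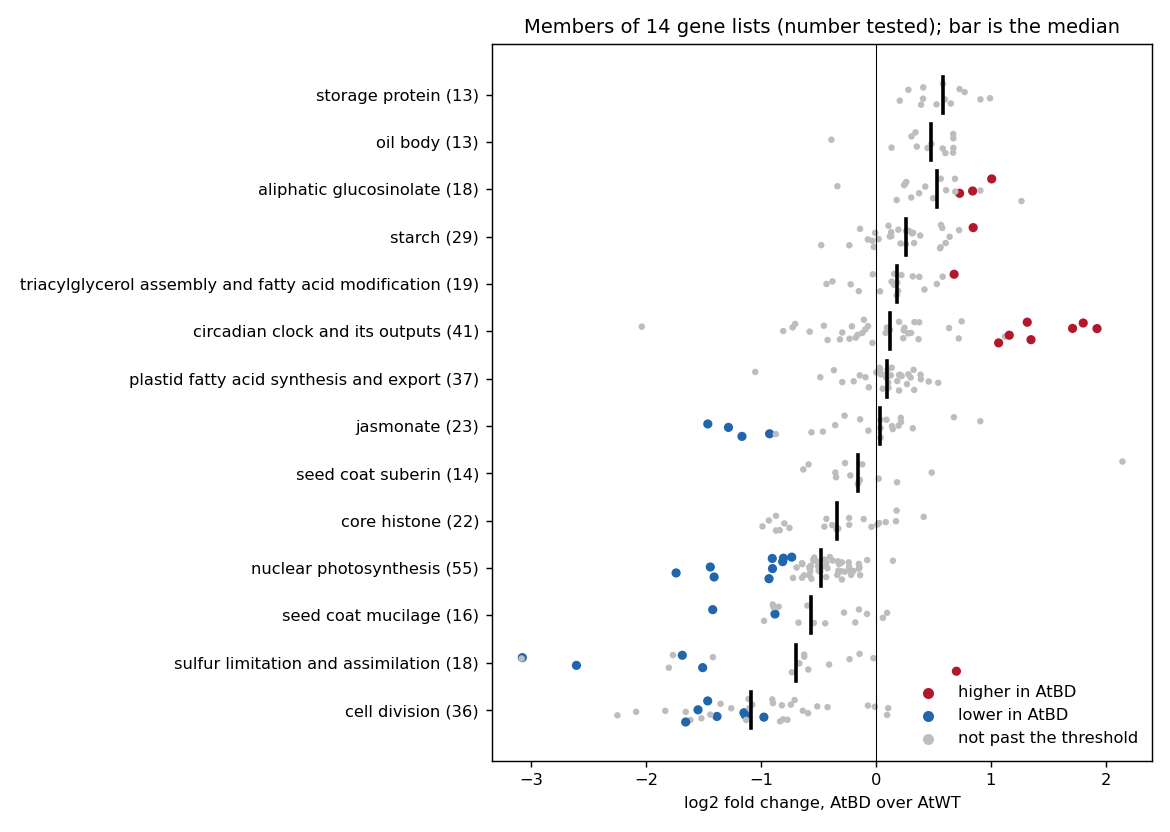
Log2 fold change of AtBD over AtWT (horizontal axis) for each tested member of 14 gene lists, with the number tested in brackets. Red and blue points passed the threshold, grey points did not, and the black bar is the list's median, from 0.58 for storage proteins to -1.09 for cell division.

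Of 36 cell division genes tested, 7 fell and 0 rose, against 1.10% and 0.397% of all genes. A negative log2 fold change was found for 34, and the median was -1.09. HIK, a kinesin of cytokinesis, had 3.02, 3.24 and 2.96 CPM in AtBD, against 9.55, 10.3 and 9.25 CPM in AtWT (log2 fold change -1.66, SE 0.24, adjusted p = 0.00742). CDC20.1, which activates the ubiquitin ligase that ends mitosis, had 4.92, 3.61 and 5.15 CPM in AtBD, against 11.2, 14.1 and 12.5 CPM in AtWT (log2 fold change -1.46, SE 0.24, adjusted p = 0.0137). The cyclin CYCB1;2 had 6.86, 5.65 and 4.68 CPM in AtBD, against 13.7, 17.6 and 13.6 CPM in AtWT (log2 fold change -1.38, SE 0.23, adjusted p = 0.0152), and the mitotic kinase CDKB2;2 had 3.28, 3.09 and 3.49 CPM in AtBD, against 8.33, 12.3 and 8.27 CPM in AtWT (log2 fold change -1.55, SE 0.27, adjusted p = 0.0180). For each the highest AtBD library was below the lowest AtWT library. The other fallers, named after their values were seen, were CDKB2;1 at -1.15 (adjusted p = 0.0208), the ribonucleotide reductase subunit TSO2 at -0.98 (adjusted p = 0.0460) and KN, the syntaxin of the cell plate, at -1.14 (adjusted p = 0.0497). The replication proteins PCNA1 and MCM5 were at -1.35 (adjusted p = 0.110) and -1.13 (adjusted p = 0.0528), and the early cell cycle cyclin CYCD3;3 at -0.07 (adjusted p = 0.926). Summed, the list had 209.9, 191 and 220.4 CPM in AtBD, against 374, 429 and 374 CPM in AtWT, with no overlap. Of 22 core histone genes 0 passed, with a median of -0.34 (-0.16 without AtWT2). AT5G65360, a histone H3 gene, was at -0.87 (adjusted p = 0.0738), and AT5G10390, another, at -0.80 (adjusted p = 0.0795). The number of cell division genes lower was 4 without AtBD1, 0 without AtBD2, 7 without AtBD3, 5 without AtWT1, 6 without AtWT2 and 1 without AtWT3. Without both AtBD3 and AtWT2 it was 19, in a fit where 755 of all genes were lower.

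The core of the mitosis-specific activator, AACGG on either strand, is a sequence that MYB3R factors bind in promoters of mitotic genes. In the same windows 20.4% of all tested genes hold it, which is common for so short a motif. Of 27 cell division genes with a complete window 14 hold it, of the 5 fallers among them 4, and of all fallers 23.9% (42 of 176). CYCB1;2 (chr5:1861704-1861953, minus strand) holds 4 copies and HIK (chr1:6324379-6324628, minus strand) 1. These windows are printed with the core in capitals to show where it lies relative to the start, which follows the last base.
CYCB1;2: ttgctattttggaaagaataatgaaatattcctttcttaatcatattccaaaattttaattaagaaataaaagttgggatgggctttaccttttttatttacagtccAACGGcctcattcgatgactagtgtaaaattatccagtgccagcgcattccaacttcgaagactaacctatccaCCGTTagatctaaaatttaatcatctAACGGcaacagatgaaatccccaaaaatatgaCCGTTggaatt
HIK: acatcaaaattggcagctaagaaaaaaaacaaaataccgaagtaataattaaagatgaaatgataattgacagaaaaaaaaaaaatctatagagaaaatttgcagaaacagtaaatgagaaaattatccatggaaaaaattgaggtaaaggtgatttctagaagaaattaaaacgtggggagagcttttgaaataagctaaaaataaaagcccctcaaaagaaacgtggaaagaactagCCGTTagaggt

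Of the seed coat and endosperm genes, BAN, MYB61, MUM2 and ALE1 fell and FLS1 rose. The seed coat is maternal tissue, and its outer cells make mucilage while the inner layer makes proanthocyanidin pigments. BAN, the anthocyanidin reductase of pigment synthesis, had 9.01, 9.89 and 5.86 CPM in AtBD, against 32.5, 25.9 and 37.03 CPM in AtWT (log2 fold change -1.94, SE 0.23, adjusted p = 0.00244). FLS1, the flavonol synthase, had 440.1, 415 and 404 CPM in AtBD, against 274, 272 and 228 CPM in AtWT (log2 fold change 0.70, SE 0.14, adjusted p = 0.0330). BAN was lower and FLS1 higher in every AtBD library, and the other 14 flavonoid genes tested did not pass, among them TT10 at -0.90 (adjusted p = 0.0903). Of 16 mucilage genes 14 were negative, with a median of -0.57, and 2 fell, against 1.10% of all genes. MYB61, a transcription factor needed for mucilage, had 9.78, 8.16 and 7.22 CPM in AtBD, against 24.3, 20.2 and 22.9 CPM in AtWT (log2 fold change -1.42, SE 0.20, adjusted p = 0.00534), and MUM2, a beta-galactosidase that modifies it, had 38.2, 32.01 and 27.9 CPM in AtBD, against 61.2, 52.9 and 66.3 CPM in AtWT (log2 fold change -0.88, SE 0.17, adjusted p = 0.0285). AtBD3 was the lowest library for both. The mucilage list summed to 1511, 1454 and 1025 CPM in AtBD, against 2237, 1821 and 2084 CPM in AtWT, without overlap, and the flavonoid list to 2492, 2346 and 1873 CPM in AtBD, against 2491, 2063 and 2169 CPM in AtWT, with overlap. Suberin genes had 0 calls of 14, with KCS2 at -0.59 (adjusted p = 0.0771) and MYB107 at -0.63 (adjusted p = 0.242). Of the 5 endosperm genes tested ALE1, a protease of the endosperm needed for the embryo's cuticle, fell with 9.63, 6.80 and 4.80 CPM in AtBD, against 25.7, 24.9 and 23.8 CPM in AtWT (log2 fold change -1.81, SE 0.24, adjusted p = 0.00465). EPR1, given above, was at 0.27 (adjusted p = 0.652). BAN and ALE1 passed whichever library was left out. MYB61 missed the threshold without AtBD2, and MUM2 and FLS1 passed without AtWT2 only.

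The remaining lists held no call, but they do not hold every relative. Outside them XTH8 rose and Hsp70-2 and UMAMIT20 fell, named after their values were seen. These passed in 1, 3 and 1 of the 6 fits with a library left out. Of 20 hypoxia genes 15 were negative, with HUP54 at -0.66 (adjusted p = 0.0668) and the pyruvate decarboxylase PDC1 at -0.78 (adjusted p = 0.0724). Of 16 genes of amino acid transport and amide metabolism, the glutamine synthetase GLN1;5 was at 0.54 (adjusted p = 0.0930) and the exporter UMAMIT14 at -1.57 (adjusted p = 0.0796). Of 18 chaperones and folding enzymes of the endoplasmic reticulum, SHD was at -0.47 (adjusted p = 0.118) and CRT2 at -0.34 (adjusted p = 0.415). Of 14 genes of heat shock, touch and wounding, HSP17.6A was at -2.59 (adjusted p = 0.0710) and HSP70-4 at 0.39 (adjusted p = 0.296), and of 5 xyloglucan endotransglucosylases XTH9 was at -0.96 (adjusted p = 0.0815) and XTH24 at 0.30 (adjusted p = 0.422). Of 13 silique wall markers, SHP2 was at -0.74 (adjusted p = 0.0529) and LAC4 at -0.56 (adjusted p = 0.313). The summed silique wall levels, given above, overlapped between the groups. Of 39 mitochondrion-encoded genes 33 were positive, with ATMG01170 at 1.63 (adjusted p = 0.0984) and ATMG00690 at 1.34 (adjusted p = 0.121). They summed to 1165, 1234 and 2578 CPM in AtBD, against 294, 1768 and 1328 CPM in AtWT, with AtWT1 the lowest library and AtBD3 the highest. Of 74 plastid-encoded genes, ATCG00160 was at 2.23 (adjusted p = 0.321). For the organelle genes these library levels move with the result, and their part in it was not tested. Of the ribosomal protein RPL18, RPL18B was at -0.13 (adjusted p = 0.820) and RPL18C at 0.28 (adjusted p = 0.769).

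Of the 12 largest rises at a mean log2 CPM of 2 or more, AT2G06950 and AT1G72680 stood far above the rest. AT2G06950 (chromosome 2, 2859226 to 2863434), annotated as an uncharacterized protein, had 595, 485 and 328 reads in AtBD and none in any AtWT library. Its level in AtBD was at least 706-fold higher against a floor of 3 counts over the group. AT1G72680 (chromosome 1, 27359109 to 27361024), annotated as a cinnamyl-alcohol dehydrogenase, the enzyme class of the last step to lignin precursors, shares its symbol CAD1 with other loci. It had 43.8, 43.3 and 33.99 CPM in AtBD, against 1.85, 0.889 and 2.12 CPM in AtWT (log2 fold change 4.62, SE 0.29, adjusted p = 2.01e-05). No library of either group came near the other group in these 2 genes. Then came FKF1, COR28, IAA32, ELF4, DIN2, BGLU18, AT1G56300, AT2G43535, JMJD5 and PRR5. IAA32, a member of the Aux/IAA family of auxin repressors, had 32.3, 32.01 and 48.2 CPM in AtBD, against 7.75, 13.3 and 12.8 CPM in AtWT (log2 fold change 1.74, SE 0.25, adjusted p = 0.00621). AT1G56300, a DnaJ-domain chaperone gene, had 64.5, 61.3 and 73.5 CPM in AtBD, against 23.6, 26.9 and 22.6 CPM in AtWT (log2 fold change 1.45, SE 0.16, adjusted p = 0.00142). BGLU18, a beta-glucosidase that frees abscisic acid from its glucose ester, had 5.99, 10.4 and 7.58 CPM in AtBD, against 2.98, 2.58 and 2.61 CPM in AtWT (log2 fold change 1.55, SE 0.30, adjusted p = 0.0283), and the knottin-like AT2G43535 was at 1.37 (adjusted p = 0.0278). In IAA32, AT1G56300 and BGLU18 every AtBD library was above every AtWT library. Of the 12, 5 are members of the clock list.

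Apart from the targets, the largest falls included several genes that were close to silent in AtBD. AT2G25510, an uncharacterized gene, had 0.410, 0.105 and 0.296 CPM in AtBD, against 7.92, 8.38 and 6.56 CPM in AtWT (log2 fold change -4.79, SE 0.46, adjusted p = 7.47e-04), and ECS1 had 0.256, 0.314 and 0.592 CPM in AtBD, against 8.99, 10.2 and 8.07 CPM in AtWT (log2 fold change -4.55, SE 0.39, adjusted p = 3.60e-04). ECS1 encodes a cell wall protein. Both genes stayed below 1 CPM in every AtBD library and above 6 CPM in every AtWT library. AT5G51950, an oxidoreductase gene, had 4.45, 6.12 and 6.40 CPM in AtBD, against 30.4, 21.8 and 28.8 CPM in AtWT (log2 fold change -2.26, SE 0.22, adjusted p = 8.54e-04), and the dirigent-like gene AT4G11180 had 59.5, 53.7 and 55.96 CPM in AtBD, against 192, 263 and 238 CPM in AtWT (log2 fold change -2.04, SE 0.16, adjusted p = 1.86e-04). The 2 small cysteine-rich protein genes LCR27 and AT3G17155 were at -2.33 and -2.52 (adjusted p = 0.0137 and 0.0220), and AT5G66230, annotated as a chalcone isomerase family member, was at -2.08 (adjusted p = 0.0118). Lower in abundance and named after its values were seen, AT5G35935 had 4, 0 and 0 reads in AtBD, against 389, 84 and 178 in AtWT, and its difference was -6.55 (adjusted p = 0.00280).

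**Figure D4:**
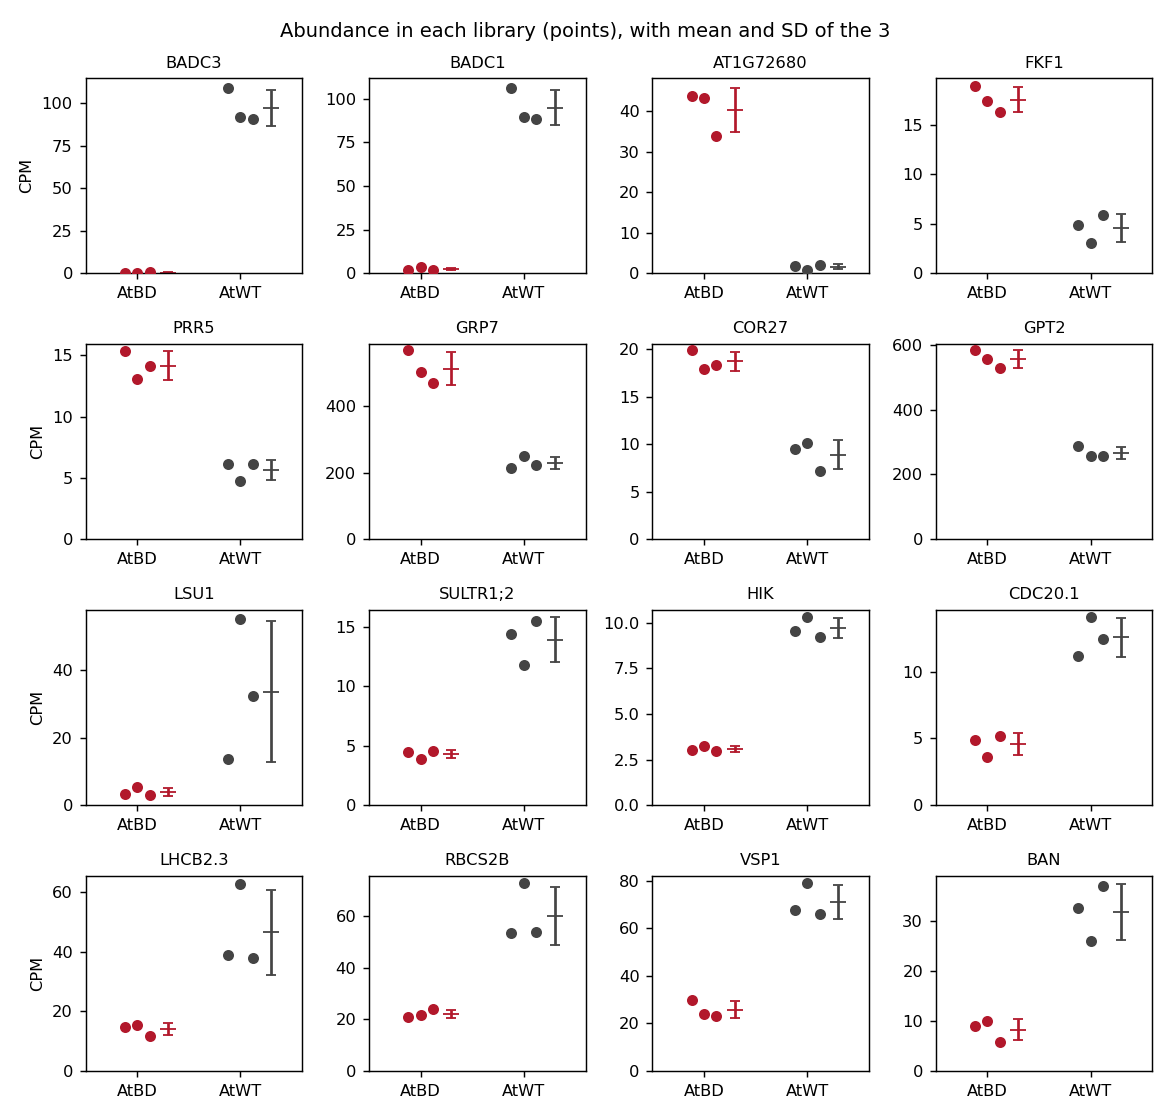
Abundance (CPM, each vertical axis starting at 0) of 16 genes in each library, AtBD left in red and AtWT right in grey, with the mean and SD of the 3 libraries beside the points. In every panel the AtBD points lie on one side of the AtWT points, and LSU1 shows the wide spread of AtWT, from 13.6 to 55.3 CPM.

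The same genotypes were also sequenced in 6 separate libraries whose titles add tr, 3 AtBDtr and 3 AtWTtr. The labels do not spell out tr. RPL18B had 12443 to 19957 CPM in the tr libraries, against 1173 to 1558 CPM in those without tr, each set scaled on its own. The 2 sets thus differ in RNA content, and whether the HF-RPL18 transgene accounts for this was not tested. There, 5 of 16436 genes passed (0.0304%), 2 higher (0.0122%) and 3 lower (0.0183%), and 395 had an unadjusted p under 0.05. All 5 also passed in AtBD against AtWT, in the same direction: BADC3, BADC1, AT5G35935, AT1G72680 and AT2G06950. BADC3 had 0.175, 0.343 and 0.0820 CPM in AtBDtr, against 74.8, 48.8 and 68.2 CPM in AtWTtr. AT1G72680 had 48.1, 37.5 and 29.2 CPM in AtBDtr, against 2.07, 3.58 and 2.83 CPM in AtWTtr, and AT2G06950 had 10.8, 13.9 and 19.02 CPM in AtBDtr, against 0, 0 and 0 CPM in AtWTtr. No AtBDtr library came near any AtWTtr library in these 3 genes.

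Most other called genes had the same direction in the tr libraries. Of the 76 risers 75 were tested there, and 67 of them (89.3%) were positive, against 50.3% of the 16324 genes tested in both. Their median log2 fold change was 0.93 in AtBD against AtWT and 0.23 in AtBDtr against AtWTtr. Of the 211 fallers 136 were tested there, and 115 of them (84.6%) were negative, against 49.7% of all genes. Their median was -1.11 in AtBD against AtWT and -0.71 in AtBDtr against AtWTtr. The tr libraries were not used to choose these genes. Some fallers were scarce there. AT4G11180 had 0, 0 and 1.60 CPM in AtBDtr, against 2.02, 0 and 0.682 CPM in AtWTtr. MLP28, named after its values were seen, had 0, 1.33 and 8.81 CPM in AtBDtr, against 11.4, 0.716 and 5.35 CPM in AtWTtr. The genes share these libraries and are not independent, and the shares over all genes are not matched for abundance. Of the clock genes, FKF1 was at 0.18, ELF4 at 0.73 and GRP7 at 0.37 in the tr comparison. Of the sulfur genes, LSU1 was at -0.18, GGCT2;1 at -0.08, SULTR1;2 at 0.90 and SDI1 at 1.51, and 10 of the 16 sulfur genes tested in both were positive there. SDI1 had 23.04, 4.63 and 2.50 CPM in AtBDtr, against 3.31, 3.82 and 3.36 CPM in AtWTtr, so its rise rests on AtBDtr1. LSU1, GGCT2;1 and SULTR1;2 were scarce in the tr libraries, at 0.164 to 3.94, 0.902 to 3.27 and 0.568 to 3.15 CPM. Such values do not settle whether the fall of these sulfur genes extends to the tr libraries. Photosynthesis genes were all negative in the tr comparison, 55 of 55, with a median of -1.19 and 0 calls. LHCB2.2 was at -2.95, with 0.642, 2.79 and 6.72 CPM in AtBDtr, against 37.4, 4.44 and 37.998 CPM in AtWTtr. RBCS2B was at -1.83, with 0, 0.343 and 0.574 CPM in AtBDtr, against 1.91, 0.143 and 1.36 CPM in AtWTtr. In both genes AtWTtr2 lay inside the AtBDtr range, so the size of the fall rests on AtWTtr1 and AtWTtr3. The same held for LHCB2.3, with 0, 0.300 and 1.52 CPM in AtBDtr, against 2.64, 0.191 and 6.09 CPM in AtWTtr. RBCS3B had 1.17, 3.94 and 5.86 CPM in AtBDtr, against 11.6, 6.16 and 21.99 CPM in AtWTtr, with AtWTtr2 just above the AtBDtr range. The photosynthesis genes share these libraries, so their 55 signs are not independent results. RBCS2B was also scarcely expressed in the tr libraries. The 13 storage protein genes split into 6 positive and 7 negative, with a median of -0.01, and the 17 glucosinolate genes tested in both had a median of -0.35. GPT2 was at 0.65 and VSP1 at -2.12. None of these single genes, from FKF1 to VSP1, passed in the tr comparison.

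Whether the genotype effect differed between the tr and the other libraries was tested directly in a fit of all 12. Of 19376 genes 0 passed with edgeR (0%), and 805 had an unadjusted p under 0.05. In a fit of the same 12 libraries AtBD against AtWT gave 11 calls, against 287 in its own 6. DESeq2 called 4, named after their values were seen: AT1G28710 at 2.03 and AT4G14330 at 2.09 more in tr, and AT1G56300 at -1.58 and AT3G57965 at -5.02, each with an adjusted p of 0.0494. With edgeR no gene is therefore shown to respond differently in the tr libraries. A fit with so few calls does not show that the responses are equal either.

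**Figure D5:**
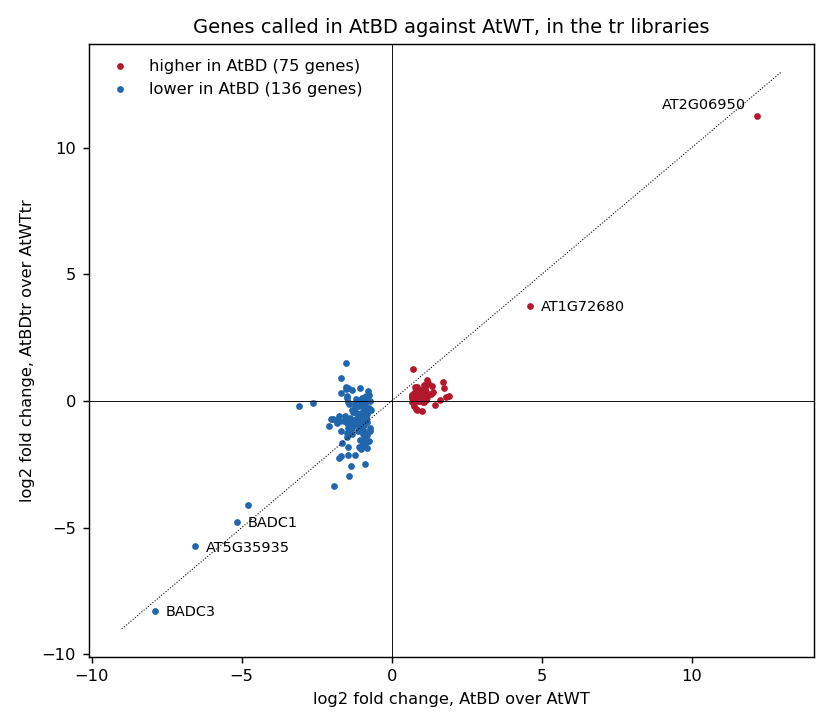
Log2 fold change of AtBDtr over AtWTtr (vertical axis) against that of AtBD over AtWT (horizontal axis) for the called genes that could be tested in both, 75 higher (red) and 136 lower (blue) in AtBD. The dotted line marks equal values. The labelled genes, BADC3, BADC1, AT5G35935, AT1G72680 and AT2G06950, lie far from 0 on both axes, and the median of the higher genes is 0.93 on the horizontal and 0.23 on the vertical axis.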

How the data were processed

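PolyA RNA of developing seed was counted in 3 AtBD and 3 AtWT libraries. Per the labels, a stranded polyA kit was used, and per the submitters' processing notes TopHat, Cufflinks, Cuffdiff and the build TAIR10. How the deposited counts were made is not given in the sources used here. The table deposited by the authors holds unnormalized counts for 33602 loci. They match the unstranded column of the deposited files per library, in which reads mapping to several places are kept apart (1.73% to 10.1%) and 50.2% to 50.7% of the strand-resolved counts fell on 1 strand.

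The test was edgeR 4.0.16 in R 4.3.3 (filterByExpr, TMM, quasi-likelihood test, Benjamini-Hochberg adjustment over all genes tested, no fold minimum). Only the 6 libraries compared were fitted. SE is the log2 fold change over the root of the F statistic. The AtBDtr and AtWTtr libraries were fitted separately, and the difference in all 12. The pipeline was tested on simulated data.

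The members and the 33 lists were chosen with earlier results of these data known. Named genes are the carboxylase and BADC list, the 12 largest rises and falls without overlap (mean log2 CPM 2 or more), up to 4 called or else 2 uncalled members per list by p, and genes below 0.5 CPM in one group and above 5 CPM in the other. Further members of a list that are named beside them, and genes so marked, were picked after their values were seen. Windows come from NCBI RefSeq, TAIR10.1, and were cut back at neighbouring genes.

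Results were recomputed with DESeq2 1.42.0, with RLE scaling, without a filter, at 1 CPM or more, with a fold minimum, with the replicate number as a block, in the fit of 12 libraries, with each library left out, and, added once the values were known, without AtBD3 and AtWT2.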

Additional observations from a re-analysis of the deposited data

How the results depend on the processing

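The number of genes called in AtBD against AtWT (287) was 11 in the fit of all 12 libraries, 758 when no gene was filtered out, 840 by DESeq2, and ranged from 60 to 414 with a library left out. It was 1451 with AtBD3 and AtWT2 both left out, a setting added once the values were known. It was 271 with RLE scaling, which moved the median of all genes by 0.0135, 317 with a minimum of 1 CPM and 194 with at least a 2-fold change. All called genes that could be tested kept their sign in these fits. With the replicate number as a block it was 96 (10 higher and 86 lower). Same-numbered AtBD and AtWT libraries correlated in their deviations at 0.09, -0.12 and -0.004, and differently numbered ones at -0.159 to 0.136. With so few libraries these values do not settle whether the numbers pair them. The block left 3 photosynthesis, 1 cell division, 5 sulfur and 2 jasmonate genes lower and 3 clock genes higher. The 5 genes called in AtBDtr against AtWTtr became 11 with DESeq2, 8 with no filter and 8 in the fit of 12 libraries, 4 with the block, and 4 to 6 with a library left out. The 0 calls for the difference became 4 with DESeq2 and remained 0 under the other settings run. Among plastid-encoded genes 53 of 74 were positive, but 19 of 78 without AtBD3 and 25 of 83 without AtWT1. They stayed mostly positive with any other library left out. Signs of single genes were followed only for those named by the rules above. Of these, 5 turned, all uncalled: accD (0.0199 with the block, -1.04 to 0.55 with a library left out, 0.59 without AtBD3 and AtWT2), BCCP1 (-0.141 to 0.00772 with a library left out, 0.0424 without both), CTI1 (-0.131 to 0.0922 with a library left out, 0.12 without both), RPL18B (0.0258 without both) and CAC3 (-0.0215 without both). The cause was not tested in any of these. With 3 libraries a group, 1002 genes had an unadjusted p under 0.05 and were higher and 1374 were lower, far more than passed the adjustment.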
